A study of Caenorhabditis elegans with 2 samples.

Results

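SUP-37 is a Caenorhabditis elegans protein whose gene was found through mutations that suppress loss of pha-1, and its binding to the genome was mapped here by chromatin immunoprecipitation and sequencing (ChIP-seq). The authors' list of 924 peaks thresholded on the irreproducible discovery rate (IDR, a filter on how alike replicates rank their peaks) held 205 peaks whose summit lay within 200 bp of a gene that Ensembl classes only as ncRNA. These 205 peaks, called ncRNA peaks below, were chosen by that distance alone and not by their strength. The other 719 IDR peaks are the comparison. The study held 1 group of 2 biological replicates of whole L1 larvae, pooled male and female, starved after bleaching and 6 hours old. Their strain was OP611, which carries the unc-119(tm4063) mutation and the integrated transgene wgIs611 with sup-37::TY1::EGFP::3xFLAG and a rescuing unc-119(+). Every sample carried the transgene, and no untagged strain was analysed here. An antibody against GFP was used according to the sample description, while the antibody label of the same samples reads sup-37. Whole larvae mix all tissues, so a peak does not say in which cells the protein was bound.

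The ncRNA class collects RNA genes that have not been placed in a named family, and most of its members are short transcripts of unknown function. It also holds a few RNAs with known work, such as the RNA subunits of RNase P and RNase MRP, which process tRNA and rRNA precursors, and the RNA of the signal recognition particle (SRP), which brings ribosomes to the endoplasmic reticulum. In animals these 3 kinds of RNA are usually made by RNA polymerase III, as are tRNAs, while most spliceosomal snRNAs and the spliced leader RNAs are made by RNA polymerase II. Many C. elegans ncRNA genes are annotated on the strand opposite to another gene, including tRNA genes. A peak beside one of them can therefore lie at a protein-coding promoter, at a small RNA gene, at both or at neither.

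The sequences around summits of the different kinds of place are shown first. Each is the summit base with 50 bases on either side, read 5′ to 3′ on the strand of the nearest ncRNA gene, with the bases of that gene in capitals. They come from the RefSeq copy of build WBcel235, which is the build ce11 of the deposited lists. Among peaks at a protein-coding promoter, F26F4.14 (chromosome III, 4899900 to 4900000, minus strand) had its summit on the first base of the RNA gene, and W06B11.7 (chromosome X, 5841246 to 5841346, minus strand) had it inside:
F26F4.14: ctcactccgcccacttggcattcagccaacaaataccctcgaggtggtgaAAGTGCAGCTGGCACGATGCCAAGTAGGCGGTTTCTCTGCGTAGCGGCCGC
W06B11.7: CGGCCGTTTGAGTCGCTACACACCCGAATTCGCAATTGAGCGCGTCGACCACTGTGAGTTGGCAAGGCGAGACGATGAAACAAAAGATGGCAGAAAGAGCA

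Beside small RNA genes, Y75B8A.49 (chromosome III, 12250370 to 12250470, minus strand) lay opposite the snRNA gene sls-2.8, and C52E4.14 (chromosome V, 11980023 to 11980123, plus strand) lay near the snRNA gene T11F9.15. C17C3.23 (chromosome II, minus strand) lay opposite sls-2.2 and had a summit on each side, at 5543506 to 5543606 past its 3′ end and at 5543707 to 5543807 before its 5′ end. The gene lies between the summits, and most of it is in neither window:
Y75B8A.49: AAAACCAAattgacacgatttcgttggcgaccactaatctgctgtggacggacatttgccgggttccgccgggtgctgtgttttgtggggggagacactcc
C52E4.14: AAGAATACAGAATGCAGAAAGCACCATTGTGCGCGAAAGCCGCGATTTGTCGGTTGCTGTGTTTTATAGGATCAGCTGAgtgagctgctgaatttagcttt
C17C3.23 past the 3′ end: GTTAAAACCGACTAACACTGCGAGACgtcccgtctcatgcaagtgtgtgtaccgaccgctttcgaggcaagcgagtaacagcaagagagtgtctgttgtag
C17C3.23 before the 5′ end: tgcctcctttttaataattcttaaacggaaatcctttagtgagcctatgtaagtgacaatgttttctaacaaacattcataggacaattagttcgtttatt

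Away from promoters and small RNA genes, C30E1.9 (chromosome X, 16929779 to 16929879, plus strand) and F09A5.11 (chromosome X, 13145290 to 13145390, minus strand) each had a summit before the 5′ end, so that their windows hold no base of the RNA. The F09A5.11 window holds CACGTG, the palindrome known as an E-box:
C30E1.9: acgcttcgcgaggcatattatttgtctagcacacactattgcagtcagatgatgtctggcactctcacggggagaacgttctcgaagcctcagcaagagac
F09A5.11: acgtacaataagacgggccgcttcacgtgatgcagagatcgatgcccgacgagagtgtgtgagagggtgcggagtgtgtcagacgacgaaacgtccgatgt

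RNAs of known function are shown by mrpr-1 (chromosome II, 7200138 to 7200238, plus strand), srpr-2.1 (chromosome III, 5211349 to 5211449, plus strand) and srpr-2.2 (chromosome III, 5031450 to 5031550, minus strand), added after their values were seen. In the mrpr-1 window TATAAA starts at base 66 and the gene takes up the last 6 bases. The 2 srpr windows lie wholly inside their genes and overlap in what they read, because the genes are near copies:
mrpr-1: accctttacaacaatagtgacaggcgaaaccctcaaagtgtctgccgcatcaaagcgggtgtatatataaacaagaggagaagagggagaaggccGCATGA
srpr-2.1: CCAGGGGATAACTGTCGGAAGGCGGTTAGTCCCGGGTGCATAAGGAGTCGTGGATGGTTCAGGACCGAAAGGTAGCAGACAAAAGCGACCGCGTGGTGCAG
srpr-2.2: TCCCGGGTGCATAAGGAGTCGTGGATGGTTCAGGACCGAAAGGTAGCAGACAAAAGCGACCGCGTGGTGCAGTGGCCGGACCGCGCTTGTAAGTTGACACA

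Only a small part of the ncRNA class was near a peak. Of 7764 ncRNA genes on the nuclear chromosomes, 266 had an IDR summit within 200 bp, which is 3.43%. These 266 genes had a median length of 145 bp, against 140 bp for all ncRNA genes, and ranged from 51 to 14770 bp. The longest was C30E1.9. By length, 58 of 2080 genes under 100 bp had a summit (2.79%), 134 of 4235 genes of 100 to 199 bp (3.16%) and 74 of 1449 longer genes (5.11%). Longer genes also span more sequence, so the shares cannot be read per base. At the limit of the rule, the summit beside W01H2.8 lay 200 bp away and was included at rank 109, and those beside R13H8.5 and T14G8.5 lay 191 and 188 bp away. Those nearest outside lay barely past 200 bp from K01F9.6 and from Y67D8A.6 and 205 bp from F54F2.13.

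The ncRNA peaks were less often at promoters than the other IDR peaks, and did not differ detectably in strength. A protein-coding promoter, meaning the 1000 bp before and the 200 bp after a gene's 5′ end, held 91 of 205 ncRNA peaks (44.4%, exact binomial 95% interval 37.5 to 51.5%) and 419 of 719 other peaks (58.3%, 54.6 to 61.9%), where 55.2% of all IDR peaks lay in one. The difference of -13.9 percentage points passed a two-sided Fisher's exact test (adjusted p = 7.63e-04 over 5 such tests). It depends on the rule, which asks for an ncRNA gene, and 23.1% of all ncRNA genes have their 5′ end in a coding promoter. The difference is therefore a description and not a finding. A tRNA, snRNA or snoRNA gene lay within 200 bp of 60 of 205 ncRNA peaks (29.3%, 23.1 to 36.0%) and of 50 of 719 other peaks (6.95%, 5.21 to 9.07%), against 11.9% of all IDR peaks. This difference of 22.3 points is a description and not a finding, because in 51 of the 60 the nearest ncRNA gene is annotated over the small RNA gene on its opposite strand, so the rule largely fixed it. The promoter difference was -7.27 points with an adjusted p of 0.102 when replicate 2 was left out, and -12.2 points with an adjusted p of 0.0695 in the stronger part of the list, by the same exact test. The tests run over peaks, which are not replicates, so they describe these 2 libraries.

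The X chromosome carried 65 of 205 ncRNA peaks (31.7%, 25.4 to 38.6%) and 128 of 719 other peaks (17.8%, 15.1 to 20.8%), against 20.9% of all IDR peaks. The difference was 13.9 points (Fisher's exact test, adjusted p = 9.28e-05). It is a description and not a finding, because the rule asks for an ncRNA gene and these are frequent on the X. The annotation itself puts 2520 of 7764 ncRNA genes (32.5%) on the X. Of the ncRNA genes on the X, 86 (3.41%) had a summit within 200 bp, which is close to the 3.43% over all chromosomes, and chromosome III had the highest share, 37 of 764 (4.84%). In the stronger part of the list the X difference was 7.38 points with an adjusted p of 0.154 by the exact test.

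In strength the 2 kinds of peak overlapped widely. The stronger 462 peaks of the list, by construction 50% of all IDR peaks, held 98 of 205 ncRNA peaks (47.8%) and 364 of 719 other peaks (50.6%), with an adjusted p of 0.658 by Fisher's exact test. The median rank was 492 for ncRNA peaks and 456 for other peaks, and the median of the authors' signal was 157.7 for ncRNA peaks and 163.1 for other peaks. That signal has no stated scale and is used only within this list. The ncRNA peaks ran from 116.9 to 813.9. They were 205 of all 924 IDR peaks, 19 of the 100 strongest and 7 of the 25 strongest, and these counts were not tested.

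**Figure D1:**
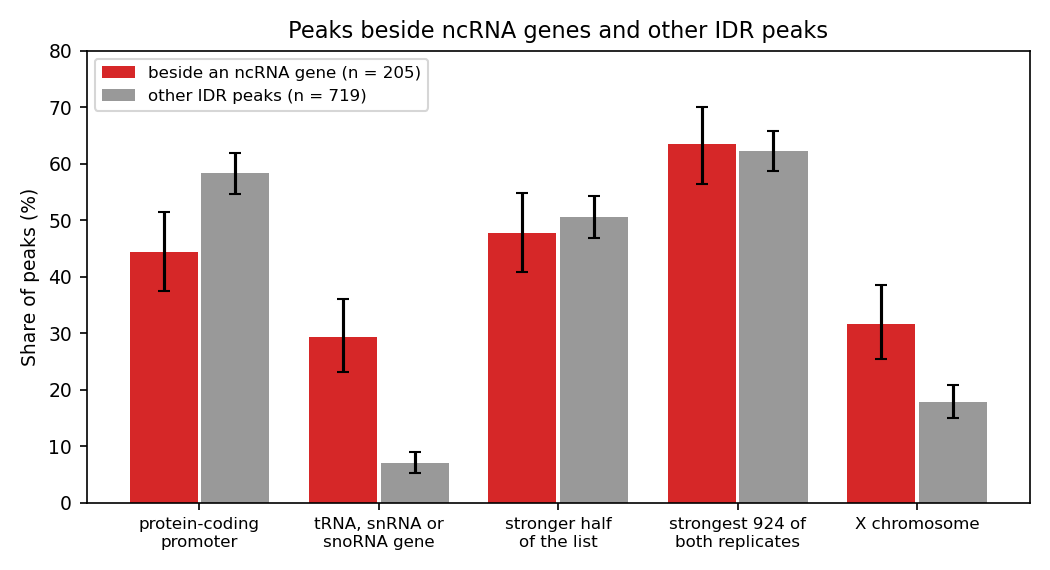
Shares of IDR peaks (%) with 5 properties, for peaks beside ncRNA genes (red, left of each pair) and other IDR peaks (grey); lines are exact binomial 95% intervals over peaks. The small RNA gene bar stands at 29.3% against 6.95%, while the intervals for strength and for both replicates overlap.

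The 205 ncRNA peaks fell into 4 kinds of place. At a promoter and at no small RNA gene lay 72 of them (35.1%), against 405 of the 719 other peaks (56.3%). At both lay 19 (9.27%), against 14 other peaks (1.95%), and at a small RNA gene only lay 41 (20%), against 36 other peaks (5.01%). At neither lay 73 (35.6%), against 264 other peaks (36.7%). The shares of single kinds were not tested. Median ranks were 381.5 for promoter only, 507 for promoter and small RNA gene, 505 for small RNA gene only and 581 for neither. Other IDR peaks of these kinds had median ranks of 418, 344, 478.5 and 524 in the same order, and the medians were not tested. Each kind of ncRNA peak had members near the top of the list, with best ranks of 6, 5, 19 and 3 in that order.

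**Figure D2:**
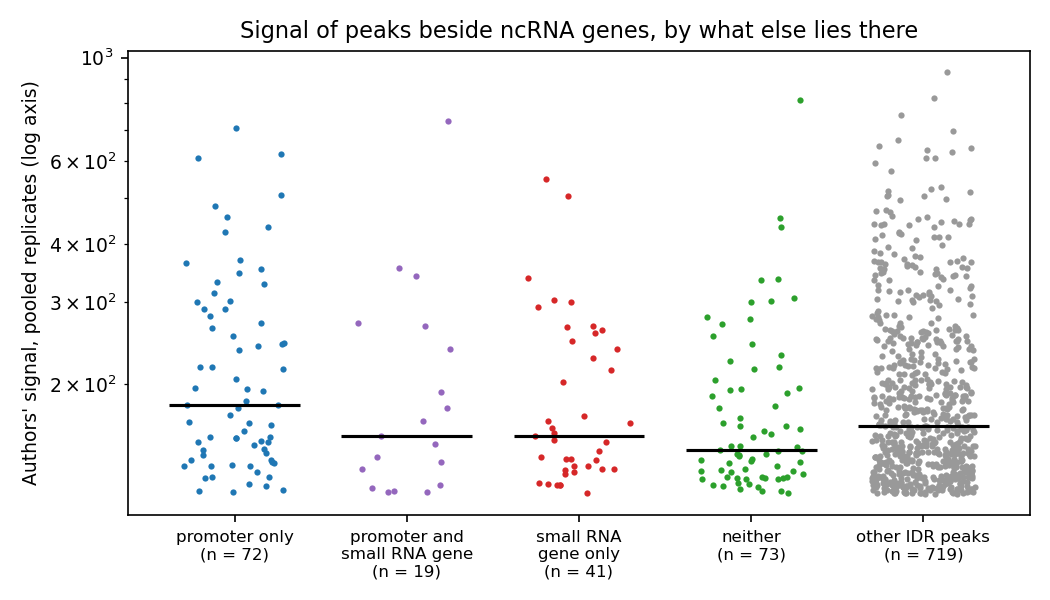
The authors' signal of each ncRNA peak (log axis), by what else lies at the summit, with other IDR peaks on the right; each point is a peak and each black line a median. The kinds overlap widely, with highest signals of 708.9 for promoter only, 732.0 for promoter and small RNA gene and 550.6 for small RNA gene only. The highest ncRNA peak, at 813.9, lies at neither a promoter nor a small RNA gene.

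Among peaks at promoters only, the strongest lay upstream of coding genes of several functions, those of protein synthesis and folding among them. The peak beside F26F4.14 (chromosome III, 4899857 to 4900052) had a signal of 708.9 and ranked 6 in replicate 1 and 9 in replicate 2, 558 bp upstream of tag-340. This peak also lay in the promoter of nhl-2. That beside W06B11.7 and its antisense neighbour W06B11.9 (chromosome X, 5841218 to 5841408) had a signal of 621.6 and ranked 10 and 13, 296 bp upstream of puf-9, which encodes an RNA-binding protein of the Pumilio family. The peak past the 3′ end of Y55F3AR.4 (chromosome IV, 1094273 to 1094463) had a signal of 610.9 and ranked 9 and 20, in the promoters of Y55F3AR.2 and cct-8, a subunit gene of the cytosolic chaperonin. All 3 peaks ranked 20 or better in both replicates.

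Further down the same group, F46B6.15 (signal 508.9, ranks 27 in replicate 1 and 36 in replicate 2) had its summit 7 bp upstream of its 5′ end and 333 bp upstream of ztf-7, a zinc-finger gene. F26D10.23 (signal 482.4, ranks 30 and 35) lay 406 bp upstream of hsp-1, the main cytosolic HSP70 chaperone. F56F3.10 and its antisense F56F3.11 (signal 456.1, ranks 43 and 38) lay upstream of rps-1, a small-subunit ribosomal protein gene. Their summit was also in the promoter of ifet-1. Genes of the secretory pathway were among the neighbours. Y38A10A.8 (signal 435.1, ranks 44 and 63) lay 245 bp upstream of crt-1, which encodes the endoplasmic reticulum chaperone calreticulin. Y38F2AR.17 (signal 363.5, ranks 93 and 113) lay 295 bp upstream of trap-3, a subunit of the translocon-associated complex, and also in the promoter of sec-61.B. T04C10.8 (ranks 37 and 83), beside epn-1, an epsin of endocytosis, and T13H2.9 (ranks 83 and 93), beside spat-3, made up the rest of the 10 strongest.

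Orientation at promoters was mixed. Among the 91 ncRNA peaks at a promoter, the nearest ncRNA gene lay on the strand opposite to the nearest coding gene in 51 (56.0%, 45.2 to 66.4%) and on the same strand in 40. Leaving out RNAs with an antisense ncRNA partner, it was on the opposite strand in 39 of 62 (62.9%, 49.7 to 74.8%). The RNA gene lay wholly upstream of the coding 5′ end in 84 of 91 (92.3%), over it in 6 and downstream of it in 1. The median summit was at -345 bp from the nearest coding 5′ end in the ncRNA peaks at promoters and at -183 bp in the 419 other promoter peaks. The rule bears on this difference, because each summit had to lie near an RNA gene and most of these genes were wholly upstream. It was not tested. 2 or more coding promoters met at 28 of the 91.

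Seen from the RNA genes, 123 of the 1797 whose 5′ end lay in a coding promoter had an IDR summit within 200 bp (6.84%, 5.72 to 8.11%), against 143 of 5967 outside promoters (2.40%, 2.02 to 2.82%). Of the 266 genes near a summit 46.2% thus had their 5′ end in a coding promoter, against 23.1% of all ncRNA genes. Peaks beside ncRNA genes were less often at promoters than other IDR peaks, while ncRNA genes at promoters were more often near a peak than ncRNA genes elsewhere. The shares of RNA genes are a description, since the rule chose them, and so is the promoter share of ncRNA peaks.

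Small RNA genes beside ncRNA peaks were tRNA genes in 35 cases (17.1% of ncRNA peaks, against 1.95% of other peaks), snRNA genes in 14 (6.83%, against 0.556%) and snoRNA genes in 12 (5.85%, against 4.45%). For tRNA and snRNA genes the shares in ncRNA peaks were several times those in other peaks, and for snoRNA genes they were close. The 14 snRNA cases include close pairs of summits at sls-2.4, sls-2.2, sls-2.8 and sup-39, so they stand for fewer loci. The 51 ncRNA peaks whose nearest ncRNA gene overlapped the small RNA gene on the opposite strand were 85.0% of the 60 (73.4 to 92.9%). In 1 the overlap was on the same strand and in 8 there was none. An opposite-strand ncRNA gene is annotated at 352 of 612 tRNA genes (57.5%), 38 of 129 snRNA genes (29.5%) and 31 of 346 snoRNA genes (8.96%), counts added after the values were seen. A summit at such a gene is beside an ncRNA gene by annotation alone.

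A summit lay within 200 bp of 37 of the 352 tRNA genes with an opposite-strand ncRNA gene (10.5%, 7.51 to 14.2%) and of 21 of the 260 without one (8.08%, 5.07 to 12.1%), so the intervals overlap widely. For snRNA genes the counts were 8 of 38 with (21.1%, 9.55 to 37.3%) and 7 of 91 without (7.69%, 3.15 to 15.2%). For snoRNA genes they were 8 of 31 with (25.8%, 11.9 to 44.6%) and 37 of 315 without (11.7%, 8.41 to 15.8%). In both of these classes the higher share was with the opposite-strand RNA and the intervals still overlapped. Neighbouring small RNA genes share summits, so these are descriptions, and near-identical tRNA and snRNA copies make the placing of reads uncertain.

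The 2 strongest ncRNA peaks at small RNA genes lay at spliced leader genes. The SL2 RNA genes sls-2.x, annotated as snRNA, make the leader that is spliced onto downstream genes of operons. The peak past the 3′ end of R12E2.18, which is opposite sls-2.4, had a signal of 732.0 and ranked 3 in replicate 1 and 7 in replicate 2, and a further summit 208 bp away, before its 5′ end, ranked 363 and 176. C17C3.23, opposite sls-2.2, had summits on either side of it, with signals of 550.6 and 338.4. Their replicate ranks were 15 and 25 for the stronger and 15 and 61 for the weaker, with 1 region of replicate 1 nearest to both. Y75B8A.49, opposite sls-2.8, had signals of 354.8 (ranks 147 and 51) and 117.5 (ranks 826 and 3550), 222 bp apart. A single, weaker peak past the 3′ end of M01E5.8, beside sls-2.9 and the tRNA gene M01E5.t1, had a signal of 140.3 (ranks 692 and 608). At the 3 loci with paired summits the stronger one was past the 3′ end of the ncRNA gene, hence on the 5′ side of the spliced leader gene, and the weaker one was on its 3′ side. The 2 regions of each pair overlap.

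Other snRNA loci were sup-6, beside F58G1.11 (signal 505.7, ranks 25 in replicate 1 and 45 in replicate 2), and sup-39, opposite C15F1.14, where summits 205 bp apart ranked 297 and 239 for the stronger and 346 and 441 for the weaker. C52E4.14 (signal 341.4, ranks 102 and 107) lay between T11F9.15 and snr-4, a gene for a core protein of the spliceosomal particles. The strongest ncRNA peak at a tRNA gene was at C18A11.t2, opposite C18A11.13 on the X (signal 303.7, ranks 110 and 140). It was followed by those at W09D6.t1 and W09D6.t2 opposite W09D6.10 (293.6, ranks 178 and 136) and at C28G1.t1 opposite C28G1.8 (267.1, ranks 157 and 234). Near C18A11.t2 a stronger IDR peak (signal 446.1, ranks 68 and 31) had its summit beyond 200 bp from both genes. Of the 35 ncRNA peaks beside tRNA genes, 19 were on the X, against 65 of all 205 ncRNA peaks. The share of all tRNA genes on the X was not counted, nor that of other IDR peaks beside them. The count is therefore not a result about ncRNA peaks. Among snoRNA genes, whose RNAs guide chemical changes of rRNA, F01D5.12 opposite F01D5.14 had the highest signal (299.7, ranks 137 and 156).

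Peaks at neither a promoter nor a small RNA gene included the strongest ncRNA peak of the list. It lay in an intron of ppfr-1 (chromosome I, 9382900 to 9383084), inside F16A11.7, which is annotated on both strands over the same span, and near the antisense RNA gene anr-20. Its signal was 813.9 and it ranked 5 in replicate 1 and 2 in replicate 2. Weaker summits inside F16A11.5 and before F16A11.13 lay in introns of the same gene, so that 3 ncRNA peaks fell within 8174 bp of ppfr-1. Their ranks in the list were 3, 562 and 656. A stronger IDR peak near F16A11.13 (signal 307.2, ranks 96 and 155) had its summit beyond 200 bp and is not among them. T28F4.7, in an intron of T28F4.1, ranked 51 and 43 (signal 433.9).

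Introns held 34 of these 73 summits, intergenic sequence 35 and exons 4, where coding genes define the terms. The nearest ncRNA gene lay inside a coding gene on the opposite strand in 33 and on the same strand in 5. Opposite-strand placement is also the more frequent in the annotation, with 2284 of all 7764 ncRNA genes (29.4%) against 1072 (13.8%) on the same strand. Of the 266 ncRNA genes near any summit, 55 (20.7%) lay inside on the opposite strand and 26 (9.77%) on the same strand. These splits were not tested. C30E1.9, the long RNA on the X, had a summit 85 bp upstream of its 5′ end (signal 335.9, ranks 151 and 65) and another 1756 bp inside it (ranks 446 and 940). W01H2.8 (signal 335.0, ranks 143 and 84), F09A5.11 (305.6, ranks 154 and 127) and R03E9.10 (301.1, ranks 167 and 92) were the next strongest, also on the X. Of the 73 peaks 23 (31.5%) were on the X, a share like that of promoter-only peaks (23 of 72, 31.9%).

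Of the 14 ncRNA genes with names that refer to a known or proposed RNA, 5 had an IDR summit within 200 bp, against 266 of all 7764 ncRNA genes (3.43%). With 5 genes, of which srpr-2.1 and srpr-2.2 are near copies, the share was not tested. The RNase P RNA gene rpr-1 (WBGene00045238), on the strand opposite to ints-8 in one of its introns, had a summit 19 bp upstream of its 5′ end with a signal of 454.2, ranking 28 in replicate 1 and 77 in replicate 2. A weaker summit 203 bp away inside it ranked 1364 and 897. The RNase MRP RNA gene mrpr-1 (WBGene00045095) had a summit 45 bp upstream of its 5′ end (signal 289.9, ranks 130 and 188), 361 bp from the 5′ end of pcrg-1 and also in the promoter of E04F6.6. Both processing RNAs thus had their strong summit just upstream of the gene.

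The SRP RNA gene srpr-2.2 (WBGene00195017) had a summit 208 bp inside it (signal 276.4, ranks 108 and 236) and another just before its 5′ end, inside R144.16 (signal 254.0, ranks 144 and 236), where 1 region of replicate 2 was nearest to both. srpr-2.1 (WBGene00195016) had a summit 179 bp inside it (signal 162.9, ranks 475 and 565). The SRP genes are near copies. srpr-2.1 and srpr-2.2 are 99.0% identical, with 3 differences in 299 bases, so which copy a read came from is uncertain. tts-1 (WBGene00006650), a long RNA that associates with ribosomes, had a summit 78 bp upstream (signal 300.7, ranks 175 and 112), inside F09E10.14. The other copies srpr-1.2 and srpr-1.1 were in the pooled list at ranks 2040 and 2804, outside the IDR list.

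Summits lay across the RNA genes rather than at 1 end. Relative to the nearest ncRNA gene and on its strand, 55 summits were upstream of the 5′ end (26.8%, 20.9 to 33.4%), 49.3% were inside (42.2 to 56.3%) and 49 were downstream of the 3′ end (23.9%, 18.2 to 30.3%). Of the 104 outside, 55 were upstream (52.9%, 42.8 to 62.8%), an interval that includes an even split. Within 50 bp of the 5′ end lay 60 summits and within 50 bp of the 3′ end 63. By kind of place, summits inside made up 36 of 72 at promoters only, 9 of 19 at promoters with small RNA genes, 17 of 41 at small RNA genes only and 39 of 73 at neither. At small RNA genes only, 17 of 41 were past the 3′ end and 7 were before the 5′ end, while at promoters only 13 of 72 were past the 3′ end and 23 before the 5′ end. The inside share was 41.4% over the 140 ncRNA peaks with a single ncRNA gene within 200 bp.

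**Figure D3:**
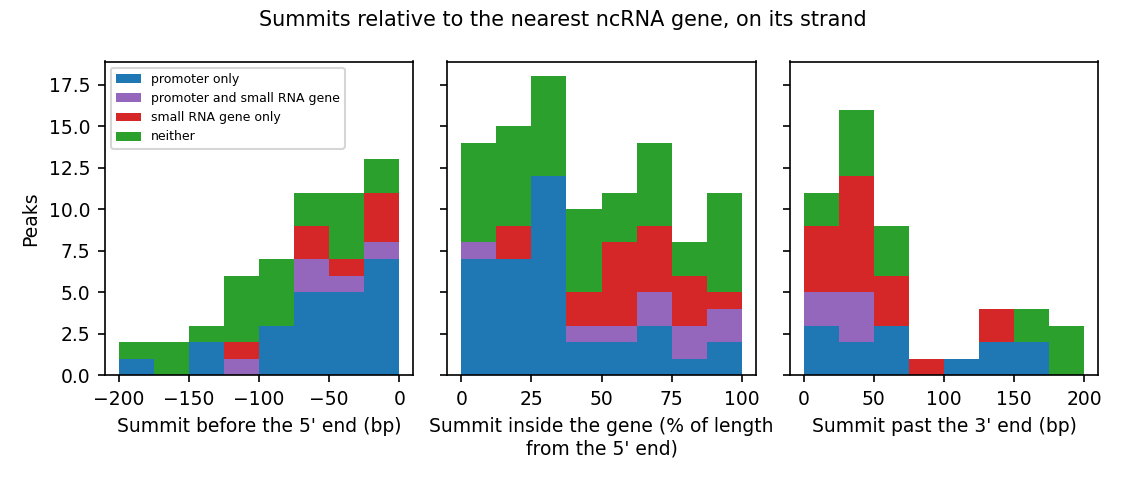
Number of ncRNA peaks by summit position on the strand of the nearest ncRNA gene: bp before the 5′ end (left), % of the gene's length (middle) and bp past the 3′ end (right), coloured by kind of place. Of 205 summits 49.3% are in the middle panel, and those outside gather near both ends, with a median distance of 50 bp.

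Many summits had more than 1 RNA gene. A single ncRNA gene lay within 200 bp of 140 summits, 2 lay near 58, 3 near 6 and 4 near 1. The summit with 4 lay beside K02A4.14, K02A4.11, K02A4.3 and K02A4.13 in the promoter of bcat-1, which encodes an enzyme of branched-chain amino acid breakdown (signal 165.5, ranks 331 in replicate 1 and 517 in replicate 2). RNA genes on both strands were near 54 of 205 summits (26.3%), and 24 summits (11.7%) were inside genes of both strands at once. Orientation relative to the RNA has no single answer for those. Both strands were represented at 28 of 72 promoter-only peaks, 1 of 19 at promoters with small RNA genes, 4 of 41 at small RNA genes only and 21 of 73 at neither. Of the 266 ncRNA genes near a summit 41.4% had an antisense ncRNA partner, against 31.2% of all ncRNA genes. A partner brings its own summit with it, so the genes are not independent.

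Close pairs of summits were seen at some RNA genes, counted after the values were seen. In 10 places 2 ncRNA peaks shared an ncRNA gene, and in 9 of these the summits were 200 to 248 bp apart, while those at C30E1.9 were 1841 bp apart. In the 9 close pairs the 2 regions overlapped, and no neighbouring summits of the whole list were nearer than 199 bp. Whether such a pair is 1 bound place was not tested, and its peaks are counted separately here. Over the whole list, 25 pairs of neighbouring summits lay within 250 bp, of which 9 were pairs of ncRNA peaks, 4 had 1 ncRNA peak and 12 had none. Peaks in such pairs made up 22 of 205 ncRNA peaks (10.7%) and 28 of 719 other peaks (3.89%). Beside the spliced leader loci and rpr-1, pairs of ncRNA peaks lay at F52D10.9 upstream of ftt-2, a 14-3-3 gene (ranks 56 and 161 for the stronger, 401 and 1419 for the weaker), F52H2.11 in aat-3 and F38B7.15 in ccch-1.

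Agreement between the replicates did not differ detectably between ncRNA peaks and other IDR peaks. Among the 924 strongest regions of each replicate, both replicates held a summit within 200 bp for 130 of 205 ncRNA peaks (63.4%, 56.4 to 70.0%) and 448 of 719 other peaks (62.3%, 58.7 to 65.9%), where 62.6% of all IDR peaks had one in both. The adjusted p was 0.806 by Fisher's exact test, with a difference of 1.11 points. Replicate 1 held 171 of the ncRNA peaks and replicate 2 held 158. For 41 only replicate 1 did, for 28 only replicate 2 did, and for 6 neither did. By kind of place, both replicates held 55 of 72 peaks at promoters only (76.4%, 64.9 to 85.6%), 10 of 19 at promoters with small RNA genes (52.6%, 28.9 to 75.6%), 28 of 41 at small RNA genes only (68.3%, 51.9 to 81.9%) and 37 of 73 at neither (50.7%, 38.7 to 62.6%). In the same order, other IDR peaks stood at 259 of 405 (64.0%), 10 of 14 (71.4%), 23 of 36 (63.9%) and 156 of 264 (59.1%). The differences between kinds of place, and those from other peaks of the same kind, were not tested.

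Single ncRNA peaks differed widely between the replicates in the lower part of the list. T19F4.6 ranked 356 in replicate 1 and 7029 in replicate 2, T10B10.11 ranked 393 and 5900, T25C12.6 ranked 423 and 5875, T25C12.7 ranked 633 and 5108, and F47C8.4 ranked 499 and 4655. T25C12.6 and T25C12.7 lie in introns of lin-14, a regulator of larval timing, where 3 ncRNA peaks fell within 7989 bp. F57G12.12 (rank 313 in replicate 1) had no region of replicate 2 within 200 bp. Nor had F38B7.16 (rank 327 in replicate 1), but a further summit 202 bp away, nearest to F38B7.15, ranked 1077 in replicate 1 and 330 in replicate 2, so both replicates had a strong region at that locus. In the other direction C08F8.13 ranked 8176 in replicate 1 and 266 in replicate 2. C26F1.14, in the promoters of the ribosomal protein gene rpl-39 and of rps-30, ranked 5837 and 582. ZK484.10 ranked 3520 and 434, and K08E7.12 ranked 3402 and 396. The 924 IDR peaks are also the first 924 of the pooled list by signal, so a peak in it need not be strong in each replicate.

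**Figure D4:**
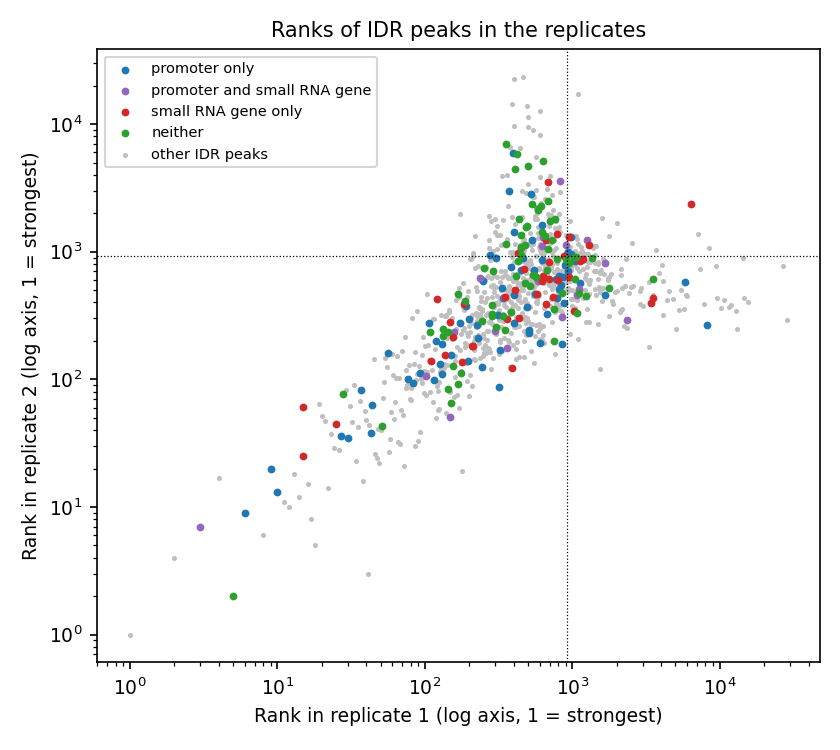
Rank of each IDR peak in replicate 1 (horizontal) and replicate 2 (vertical), both on log axes with 1 as the strongest; ncRNA peaks are coloured by kind of place, other IDR peaks are grey and dotted lines mark rank 924. The strongest peaks fall near the diagonal, and arms of points run up and to the right where 1 replicate ranked a peak far lower, as T19F4.6 at 356 and 7029.

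How many short words differed between ncRNA peaks and other IDR peaks depended on the window around the summits. Of the 2080 words of 6 bases, taken on both strands together in the windows of 50 bases on either side of the summit, 4 (0.192%) differed at an adjusted p under 0.05 by Fisher's exact test. CCGGCC was in 7.80% of ncRNA peak windows and 1.67% of other windows, TACCGA in 5.85% and 0.834%, and CGAGCA in 7.32% and 1.53%. GACGCA went the other way, with 9.76% of ncRNA peak windows and 22.0% of other windows. The adjusted p of each was 0.0376 by the exact test. With 100 bases on either side 71 words were called, and in windows of 51 bp none was. No word was called without the peaks beside small RNA genes, which also leaves fewer peaks, and 1 was called without replicate 2. Why these calls were lost was not tested. The median GC content was 50.5% in ncRNA peak windows and 48.5% in other windows.

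Motifs known from textbooks were counted on both strands, with no test. GTTCGANNC, the core of the B box inside tRNA genes, was in 13 of 205 ncRNA peak windows (6.34%) and 9 of 719 other windows (1.25%), and in 2.38% of all. It was in 6 of 19 windows at promoters with small RNA genes, 6 of 41 at small RNA genes only, 1 of 72 at promoters only and 0 of 73 at neither. CACGTG, the E-box, was in 5.85% of ncRNA peak windows and 5.98% of other windows (5.95% of all), but 10 of its 12 ncRNA peak windows were at neither, where it made up 13.7% of 73. GAGAGA was in 31.7% and 26.4% (27.6% of all) and was most frequent at neither, in 31 of 73 (42.5%). Motifs in the other IDR peaks were not split by kind of place. The shares by kind therefore cannot be called particular to ncRNA peaks. TATAAA, the TATA box core, was in 4.88% of ncRNA peak windows and 4.73% of other windows (4.76% of all), and TTCCCGC, bound by E2F factors in animals, was in 2.44% and 1.81% (1.95% of all). A match shows only that the letters are in the window.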

How the data were processed

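ChIP-seq peak lists of 2 biological replicates, their pool and the IDR-thresholded set were used, grouped by the labels' replicate numbers. Regions were called by the authors against 2 control alignments on ce11, per the deposited descriptions, with 30000 regions each in the pooled list and in each replicate list. The caller, aligner and IDR cutoff were not given in the sources used here. As the strength of a region the deposited signal (column 7), the authors' value on an unstated scale, was used within a list only. The deposited −log10 q (column 9) was read and not used to choose peaks. Other deposited values used were the summit offsets. Depth is unknown, since the lists hold no read counts. Intervals are exact binomial (Clopper-Pearson) at 95% and cover counting error only. No region was identical between the replicates.

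Summits were set against genes of Ensembl release 115 on WBcel235, and 99.9% of 31805 start codons read ATG in the RefSeq sequence used. Ranks in a replicate are those of the nearest summit within 200 bp. Shares of ncRNA peaks were compared with those of other IDR peaks by Fisher's exact test (two-sided), adjusted after Benjamini and Hochberg over 5 tests, and over 2080 words for sequence, with Python 3.11.15, SciPy 1.17.1, pandas 2.3.3 and NumPy 2.4.6. The word test was run first on simulated data. Alternatives changed the distances, windows, gene classes, list and replicates. The rule for names took the 20 strongest ncRNA peaks, the 10 strongest of each kind of place, named RNAs, the 5 with most ncRNA genes and the 5 that differed most between replicates each way. Not all of these are described. Windows shown were drawn from the 3 strongest of each kind, passing over those on chromosome I or at an annotated UTR. The members and lists were chosen with earlier results of these data known.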

Additional observations from a re-analysis of the deposited data

How the results depend on the processing

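Of 58 alternative values, 40 kept their direction and side of the threshold or, for counts and the untested inside share, stayed near the value reported. The difference at small RNA genes, which the rule largely fixed, stayed positive under every alternative run. The X difference, a description because the rule asks for an ncRNA gene, kept its direction under every alternative run. Its adjusted p was under 0.05 under all but the stronger part of the list (462 peaks), where the difference was 7.38 points (adjusted p = 0.154, Fisher's exact test). There the promoter difference, also a description under the rule, was -12.2 points (adjusted p = 0.0695, exact test). By construction of a shorter list, 98 ncRNA peaks remained. Without replicate 1 or 2, that is with the 924 strongest regions of the other, the promoter difference ran from -10.2 to -7.27 points (adjusted p of 0.0207 without replicate 1 and 0.102 without replicate 2, exact test), that of small RNA genes from 18.4 to 23.9, that of the X from 10.7 to 12.7, the count of ncRNA peaks from 181 to 195 and of words called from 1 to 4. The difference in strength (share in the stronger part of the list), which passed no test, changed sign to between 5.15 and 6.17 points. The difference in peaks held by both replicates, which also passed no test, was -1.06 points at 500 bp, -1.13 with lincRNA and antisense RNA genes included and -2.89 when summits had to match within 50 bp. The words depended most on the setting: 1 was called at 50 bp, 1 in the stronger part of the list, 0 with lincRNA and antisense RNA genes, 0 without peaks beside small RNA genes, 0 in windows of 51 bp around the summit and 71 with 100 bases on either side. The cause was not tested. The share of summits inside the RNA gene was 65.2% at a limit of 50 bp, which removes distant summits, and 41.4% with a single ncRNA gene. The test of strength was not run within the stronger part of the list, nor that of both replicates with 1 replicate. No paired analysis was possible because the study has a single group. Unknown depth and the missing untagged strain limit what the peaks show, and near-identical small RNA genes make the placing of reads uncertain.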

Other observations

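Of 205 ncRNA peaks, 8 also lay within 200 bp of a gene of another noncoding class. They were the antisense RNA genes anr-20 and anr-36, the long intergenic RNA genes linc-44, linc-78, linc-110, linc-129 and K07C10.8, and the microRNA gene cel-mir-52 beside Y37A1B.333 (signal 195.1, ranks 304 in replicate 1 and 256 in replicate 2). AH9.7, beside linc-78, had its summit in the promoter of the ribosomal protein gene rpl-11.2 (signal 270.7, ranks 197 and 138).

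Named ncRNA genes outside the IDR list included tts-2 at rank 9781 and srpr-3 at rank 26224 of the 30000 pooled regions. No pooled region lay within 200 bp of rncs-1, yrn-1, lfor-1, lfor-2 or linc-171.

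Runs of at least 3 ncRNA peaks with gaps of at most 10 kb were counted after the values were seen, and 6 were found. Beside those at ppfr-1 and lin-14, they lay at aat-3 and smvt-1 (within 4439 bp), at bcat-1 (4546 bp), around his-42 and ins-37 (5638 bp) and near F57G12.1 (7168 bp). Of the 6 runs, 4 were on the X, which carried 65 of the 205 ncRNA peaks (31.7%). Runs among the other IDR peaks were not counted, and no test was made.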
